A study of Mus musculus with 4 samples.

Results

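The genes described here are the chemokines, the interleukins and their receptors in the left ventricle of young and aged mice, with and without ischemia and reperfusion (I/R). They were chosen by name: symbols that begin with Ccl, Cxcl, Ccr, Cxcr, Ackr or Il and a number, or with Cx3c, and that held at least 20 unique molecular identifiers (UMIs, each standing for a captured RNA molecule) over the 4 libraries. Of 150 listed symbols of this kind 127 held at least 1 UMI, 51 lay under the minimum, and 4 (Ccr2, Cxcr2, Il1r2 and Il4ra) were left out by the rule, which leaves 95 of the 17699 genes that reached the same minimum. Just inside the minimum were Cxcr3 with 20 UMIs, Il27 with 21 and Il19 with 22, and just outside it Il10 and Ccl22 with 19 each and Il1a with 18. The name rule also takes in Il4i1, an amino acid oxidase induced by interleukin 4, and Il1rapl1, a synaptic protein, which are neither interleukins nor their receptors.

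Left ventricles came from male C57BL/6J wild-type mice of 3 to 5 months (young) or 24 to 26 months (aged). In I/R mice the left anterior descending coronary artery was closed for 45 min and then reperfused for 24 h. The controls are called sham in the paper and in the sample titles, and healthy, without alteration, in other labels. The 4 droplet libraries (10x Genomics) are 1 per condition, namely sham and I/R in young and in aged mice, and neither the labels nor the methods state how many mice each holds. Nuclear RNA is named in the labels, where the paper describes single cells. The libraries hold 91124 to 102883 barcodes with median UMIs from 244 in young sham to 675 in aged I/R, 25836175 to 66767829 UMIs in all, and each pair of libraries shares 2366 to 2843 barcode sequences. The 18 cardiomyocyte markers sum to 99372 to 120576 CPM (where 10000 equals 1% of the UMIs in a library), and the endothelial, fibroblast and macrophage lists were detected in full in every library.

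Chemokines are small secreted proteins that bind receptors of the G protein-coupled family on leukocytes and guide their movement, and atypical receptors bind chemokines without that signal and clear them. Interleukins act through several receptor families, of which the interleukin 1 (IL-1) family signals through MyD88 to NF-κB and the interleukin 6 (IL-6) family through gp130, JAK kinases and STAT3. In the heart both groups are known for the recruitment of neutrophils and monocytes after infarction and for the start of scar formation.

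All values are UMIs summed over every barcode of a library. A series of 4 values stands in the order sham then I/R of young mice, sham then I/R of aged mice, and a log2 ratio of CPM is followed by its exact 95% interval. A gene is called higher or lower where the ratio is at least 2-fold and the interval excludes equality. These intervals cover counting error only: no test was possible with a single library in each condition, and a difference between libraries cannot be told apart from a difference between mice or preparations. In whole-library sums, fewer cells of a type and less RNA per cell cannot be told apart either.

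In young mice 17 of the 95 genes were higher in I/R than in sham, where 2.92% of all 17699 genes were, and 18 were lower, where 25.5% of all genes were. In aged mice 14 were higher against 5.15% of all genes, and 9 were lower against 2.99%. Higher calls in young I/R were almost all ligands: 16 of 46 ligands and secreted antagonists (34.8%) and 1 of 49 receptors and other members (2.04%). In aged I/R the split was less marked, with 11 of 46 ligands and secreted antagonists (23.9%) and 3 of 49 receptors and other members (6.12%). In young mice the median log2 ratio of I/R to sham was -0.23 over the 95 genes and -0.53 over all genes, and in aged mice 0.04 and 0.09. Libraries can also be scaled by the median of gene-wise ratios, which adds 0.43 to every young I/R ratio and -0.09 to every aged one. Then 21 genes were higher and 8 lower in young I/R, with 6.01% and 13.2% of all genes, and 12 higher and 9 lower in aged I/R, with 4.18% and 3.57%. Both shifts are smaller than 2-fold, so this scaling could not turn the direction of a called gene.

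**Figure D1:**
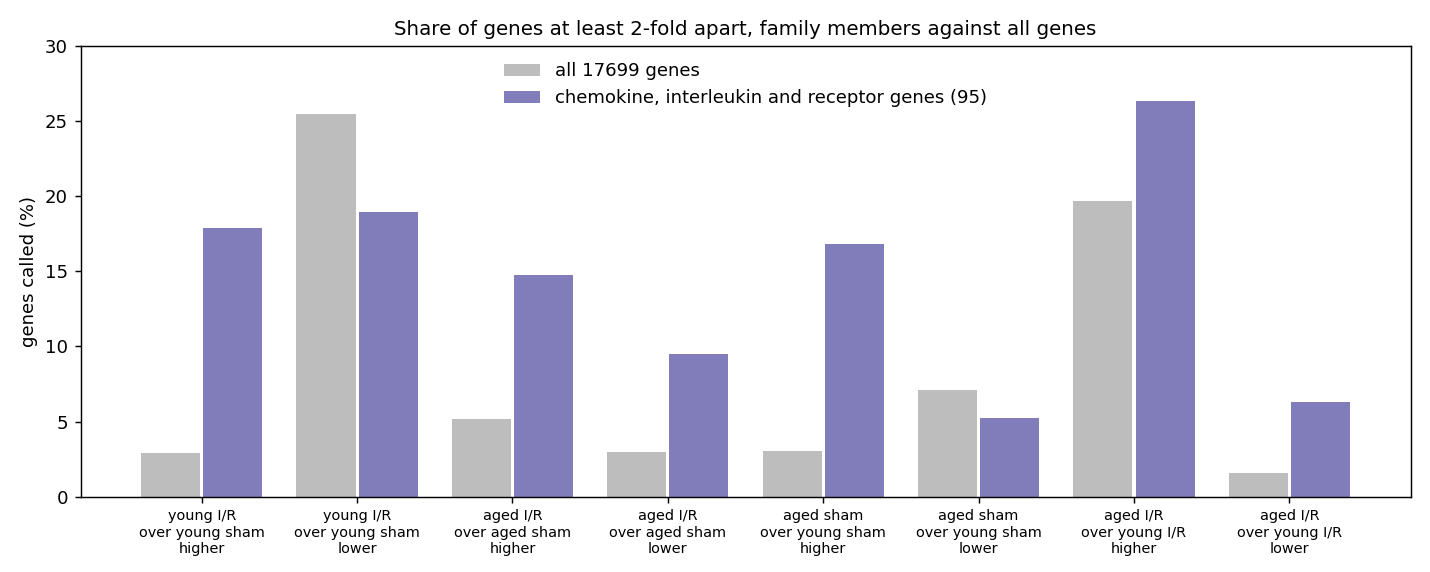
Share of genes called higher or lower (%, y axis) in each of the 4 comparisons (x axis), for all 17699 genes in grey and for the 95 chemokine, interleukin and receptor genes in purple. The purple bar for higher in young I/R stands at 17.9% against 2.92%, and that for lower in young I/R at 18.9% against 25.5%.

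Among 10 measured CXC chemokines, the neutrophil attractants Cxcl1, Cxcl2, Cxcl3 and Cxcl5 were higher in I/R at both ages. Over all genes, 2.92% were higher in young I/R and 5.15% in aged I/R. Cxcl5 held 0.503, 29.4, 1.55 and 14.0 CPM, from 13, 1166, 64 and 936 UMIs. I/R exceeded sham by 5.87 (5.09 to 6.78) on the log2 scale in young mice and by 3.18 (2.81 to 3.57) in aged mice. Both I/R libraries stood far above both sham libraries, with young I/R the higher of them. Cxcl2, which like Cxcl1 binds the neutrophil receptor Cxcr2, held 0.619, 9.78, 0.774 and 7.97 CPM, with log2 ratios of 3.98 (3.26 to 4.80) and 3.36 (2.85 to 3.93). Cxcl1 held 1.86, 10.2, 2.80 and 6.34 CPM and had log2 ratios of 2.46 (2.02 to 2.92) and 1.18 (0.88 to 1.48). For both, the lower of the I/R values was more than 2 times the higher of the sham values. Cxcl3 had 0, 131, 2 and 114 UMIs, or 0, 3.30, 0.0484 and 1.71 CPM. With 3 UMIs put for the count of 0, young I/R was 28.4-fold higher than young sham, a value that is not the limit of an interval. The aged log2 ratio of 5.14 (3.26 to 8.20) rests on 2 sham UMIs.

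These attractants sit side by side: Cxcl5, Cxcl3, Cxcl1 and Cxcl2 lie within chromosome 5 from 90759360 to 90905938 (GRCm38), and 7 of the 10 CXC chemokines fall in a stretch of that chromosome that ends at 95961068. The promoter windows below are shown because 5 of the 9 genes with an entry among those higher in I/R at both ages hold a run of letters in them. The run is GGGNNTTTCC, a form of the NF-κB motif, searched on both strands (GGAAANNCCC on the other) in the 250 bases before each RefSeq transcription start. It occurs in 447 of 27025 genes of the promoter table (1.65%) and in 9 of the 72 members that have an entry there (12.5%). Of the 9 entries among members that were higher in I/R at both ages, 5 hold it (55.6%): Cxcl1, Cxcl2, Cxcl3, Il1rn and Il6. Il1b, Il1f9, Ccl6 and Il18rap do not. It is in 2 of the 35 entries (5.71%) of members called in neither I/R comparison. Cxcl1, Cxcl2 and Cxcl3 are related copies with similar promoters, so these counts are not independent, and a match of letters is a description, not a bound site. Each sequence gives the 120 bases before a RefSeq start in GRCm38.p6, on the plus strand except for Il1b, with the motif in capitals.
Cxcl1, chr5:90891125-90891244: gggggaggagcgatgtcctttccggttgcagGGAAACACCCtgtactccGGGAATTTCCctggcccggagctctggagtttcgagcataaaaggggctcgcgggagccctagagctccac
Cxcl2, chr5:90903779-90903898: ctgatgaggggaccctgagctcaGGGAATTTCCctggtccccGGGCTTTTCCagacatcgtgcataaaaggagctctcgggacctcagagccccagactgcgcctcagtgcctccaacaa
Cxcl3, chr5:90785981-90786100: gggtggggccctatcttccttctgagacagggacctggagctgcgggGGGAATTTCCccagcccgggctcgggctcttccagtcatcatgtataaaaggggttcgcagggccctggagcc
Il6, chr5:30012994-30013113: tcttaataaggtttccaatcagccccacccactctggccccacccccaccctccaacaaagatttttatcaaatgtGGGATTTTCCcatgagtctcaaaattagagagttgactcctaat
Il1rn, chr2:24345251-24345370: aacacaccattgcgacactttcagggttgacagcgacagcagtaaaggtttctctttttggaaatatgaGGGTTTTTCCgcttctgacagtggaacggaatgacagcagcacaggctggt
Il1b, chr2:129371140-129371259, minus strand, shown as a gene higher at both ages without the motif: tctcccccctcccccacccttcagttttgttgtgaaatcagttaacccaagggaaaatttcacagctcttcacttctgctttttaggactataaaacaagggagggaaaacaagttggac
Cxcl12, chr6:117168415-117168534, shown as a CXC chemokine without the motif: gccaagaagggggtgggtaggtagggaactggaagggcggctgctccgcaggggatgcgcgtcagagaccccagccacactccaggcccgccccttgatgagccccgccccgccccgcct
In Cxcl1 and Cxcl2 the motif occurs 2 times, and its nearest copy begins 71 and 78 bases before the start. The nearest copy begins 73 bases before the start in Cxcl3, 44 in Il6 and 51 in this start of Il1rn, which has other starts in the table without it.

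The remaining CXC chemokines did not follow that pattern. Cxcl9, which is induced by interferon γ and attracts T cells through Cxcr3, held 4.92, 1.13, 6.48 and 1.81 CPM, with log2 ratios of -2.12 (-2.64 to -1.61) and -1.84 (-2.16 to -1.52). Cxcl10, a ligand of the same receptor, held 0.503, 0.454, 1.77 and 0.614 CPM, so that aged sham alone stood high. Its aged log2 ratio of -1.52 (-2.11 to -0.95) was called, and its young one of -0.15, with an interval that spans equality, was not. Cxcl16, which is made as a membrane-bound chemokine for Cxcr6, was lower in young I/R at 5.70 CPM than in the other libraries at 14.3, 18.1 and 12.7 CPM. It overlaps Zmynd15 on the other strand, and its young log2 ratio of -1.33 (-1.57 to -1.08) was no longer a call with the other scaling.

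Cxcl12, the homeostatic chemokine that holds Cxcr4-bearing cells in place, held 117, 87.2, 124 and 218 CPM from 3035 to 14537 UMIs. Aged I/R was the highest library and young I/R the lowest. In young mice the log2 ratio of I/R to sham was -0.43 (-0.50 to -0.36), a sign that turned with the other scaling, in aged mice it was 0.81 (0.77 to 0.86), and neither reached 2-fold. Cxcl13, which guides B cells into follicles through Cxcr5, held 0.0387, 0.202, 1.93 and 6.90 CPM, from 1, 8, 80 and 461 UMIs. Both aged libraries stood above both young ones, and aged I/R exceeded aged sham by 1.84 (1.49 to 2.20) on the log2 scale. Cxcl14 held 11.3, 14.1, 22.7 and 28.0 CPM and was also higher in both aged libraries, with I/R within 2-fold of sham at either age.

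Of 17 measured CC chemokines, 6 were higher and 2 lower in young I/R, where 2.92% and 25.5% of all genes were. In aged I/R 2 were higher and 2 lower, against 5.15% and 2.99% of all genes. Ccl2, the main monocyte attractant, held 2.79, 22.6, 3.97 and 11.3 CPM, from 72, 896, 164 and 756 UMIs. Its log2 ratios were 3.02 (2.67 to 3.39) and 1.51 (1.27 to 1.77), with young I/R the highest library. Ccl7, its neighbour and a further ligand of the monocyte receptor Ccr2, held 3.41, 17.7, 5.34 and 9.08 CPM, with a called young log2 ratio of 2.38 (2.05 to 2.71) and an aged one of 0.76 (0.54 to 0.99) under 2-fold. Both I/R libraries again stood above both sham libraries. Ccl6 held 9.21, 36.1, 14.0 and 35.2 CPM, and its log2 ratios were 1.97 (1.77 to 2.18) and 1.33 (1.20 to 1.46), with the I/R libraries alike. Ccl9, which like Ccl6 is made by myeloid cells and binds Ccr1, held 6.08, 19.7, 8.44 and 16.7 CPM. Its aged log2 ratio of 0.98 (0.81 to 1.16) lay just under the 2-fold limit, beside 1.70 (1.45 to 1.96) in young mice. Ccl3, an inflammatory chemokine for Ccr1, was called higher in young mice from 6 and 39 UMIs, and Ccl17 from 1 and 20 UMIs, and neither was called in aged mice.

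In the same gene cluster on chromosome 11, which holds 10 of the 17 CC chemokines between 82035571 and 83664683, other members did not share this direction. Ccl8 held 1.90, 1.61, 17.3 and 9.94 CPM, with log2 ratios of -0.23 (-0.79 to 0.33) and -0.80 (-0.95 to -0.64), neither of them called. Ccl12, a mouse relative of Ccl2, held 2.86, 3.86, 4.57 and 3.95 CPM, within 2-fold in both I/R comparisons. Ccl5, which T cells and natural killer cells make, held 0.464, 0.403, 2.56 and 1.11 CPM and was lower in aged I/R than in aged sham, at -1.21 (-1.66 to -0.77). The cluster thus held genes that were higher in I/R, within 2-fold and lower.

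The lymphoid-tissue chemokines that bind Ccr7 went opposite ways in young mice, while both were lower in aged I/R, Ccl21a by less than 2-fold. Ccl21a held 12.7, 5.57, 17.5 and 10.6 CPM, with log2 ratios of -1.18 (-1.44 to -0.93) and -0.73 (-0.88 to -0.58), of which the young one was called and lost its call with the other scaling. Near-identical copies of Ccl21a and of Ccl27a exist in the mouse genome, and reads may be split among them. Ccl19 held 1.59, 3.05, 3.26 and 1.23 CPM, and here the ages went opposite ways: 0.94 (0.42 to 1.49) in young mice, just under 2-fold, and a called -1.41 in aged mice.

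Most neutrophil markers moved with the attractants. The summed level of 14 neutrophil markers was 57.5, 233, 57.7 and 197 CPM, and 12 of the 14 had a larger CPM in I/R than in sham of young mice and 13 of aged mice, at any size of difference. Most of the difference in the sum was that of Lcn2, at 1.51, 99.8, 2.08 and 72.6 CPM, while G0s2, at 38.7, 24.1, 27.2 and 20.9 CPM, was lower in I/R by less than 2-fold. The defining marker Ly6g had only 0, 2, 1 and 7 UMIs. Camp had 1, 1, 4 and 8 UMIs, Ltf 1, 2, 4 and 11, and Ngp 1, 4, 1 and 8, so their directions also rest on few UMIs. The 21 macrophage markers summed to 501, 375, 714 and 682 CPM, and 6 of 21 had a larger CPM in young I/R and 13 of 21 in aged I/R. The part of these cells in the chemokine values was not tested.

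**Figure D2:**
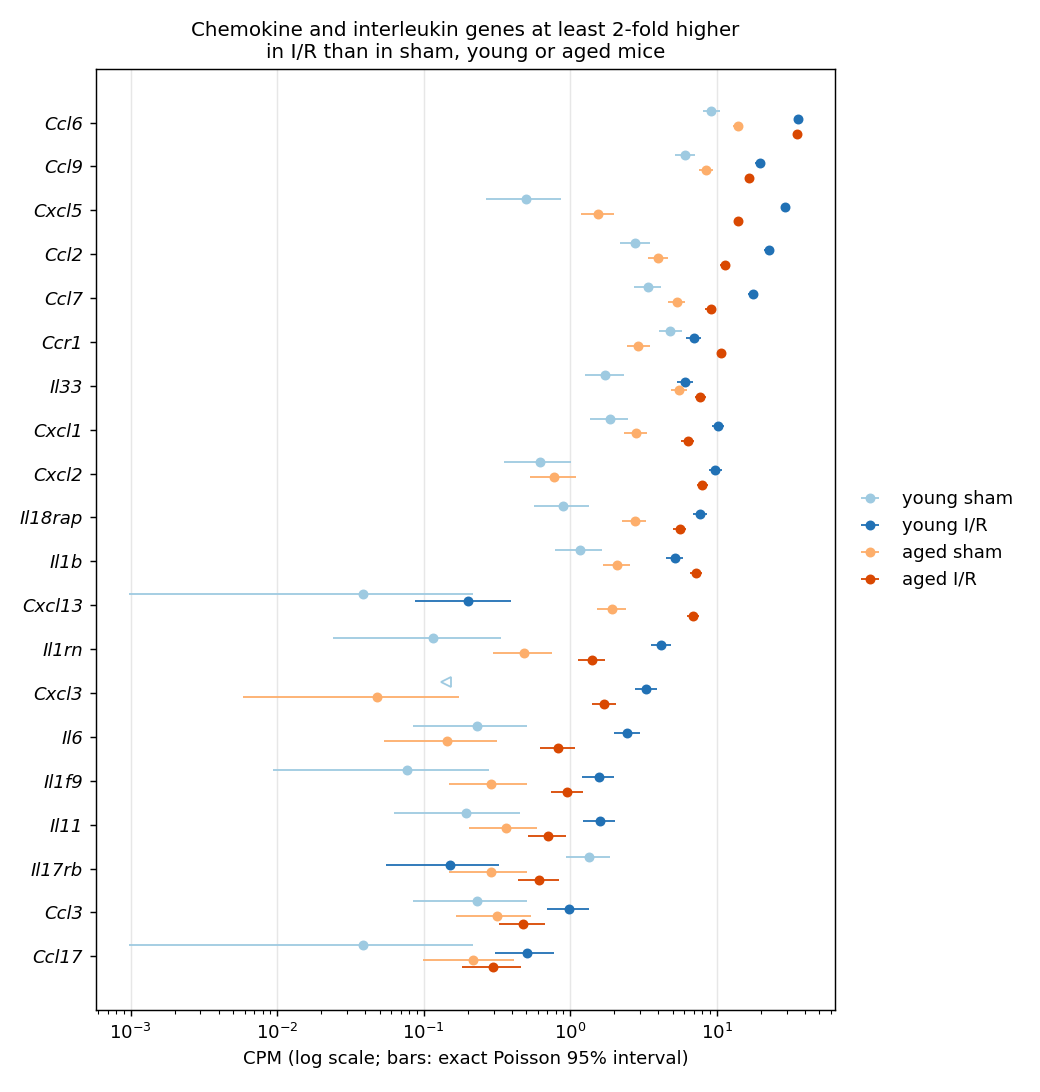
Levels (CPM, log scale, x axis) of the 20 genes called higher in I/R in young or aged mice (y axis) in each of the 4 libraries, with exact Poisson 95% intervals as bars. The open triangle marks the upper limit for Cxcl3 in young sham, which had 0 UMIs; most I/R points (dark) lie to the right of the sham points (pale) of the same age, while for Il17rb young I/R lies left of young sham.

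Of 6 measured IL-1 family ligands and antagonists, 4 were higher in young I/R and 3 in aged I/R, and none was lower. In young I/R 2.92% of all genes were higher and 25.5% lower, and in aged I/R 5.15% and 2.99%. Il1b, the inflammatory cytokine released by inflammasome-activated myeloid cells, held 1.16, 5.17, 2.08 and 7.23 CPM, with log2 ratios of 2.15 (1.60 to 2.76) and 1.80 (1.47 to 2.15). Aged I/R was its highest library. Il1rn, the secreted antagonist of the IL-1 receptor, held 0.116, 4.16, 0.484 and 1.41 CPM, from 3, 165, 20 and 94 UMIs, with log2 ratios of 5.16 (3.59 to 7.45) and 1.54 (0.83 to 2.32). In contrast to Il1b, its highest library was young I/R. Il1f9, also named IL-36γ, had 2, 62, 12 and 64 UMIs and log2 ratios of 4.34 (2.42 to 7.41) and 1.72 (0.82 to 2.75). Il33, an alarmin kept in the nuclei of stromal cells, held 1.74, 6.13, 5.54 and 7.73 CPM, so that young sham was the low library, and its log2 ratios were 1.81 (1.35 to 2.31) and 0.48 (0.25 to 0.71). Il18 held 1.08, 0.555, 2.06 and 1.36 CPM and was not called in either I/R comparison, nor was its binding protein Il18bp, which overlaps Numa1 on the other strand.

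Receptors of the IL-1 family lie in a cluster on chromosome 1, where 5 of the 6 measured ones fall between 40225080 and 40551705, and they did not move as a block. Il18rap, the accessory chain of the IL-18 receptor, held 0.890, 7.71, 2.76 and 5.62 CPM, with log2 ratios of 3.12 (2.50 to 3.79) and 1.03 (0.72 to 1.34), of which the aged one was lost with the other scaling. Its partner Il18r1 held 0.697, 0.681, 3.75 and 2.88 CPM, with no call in I/R over sham. The chains of this receptor thus differed: the accessory chain was higher in I/R, and the binding chain was higher in both aged libraries. Il1r1, the signalling receptor for IL-1, held 15.6, 20.5, 15.3 and 24.9 CPM, within 2-fold throughout. Il1rl1, the receptor for IL-33, held 3.10, 1.11, 2.35 and 1.96 CPM and was lower in young I/R, at -1.48 (-2.05 to -0.93), where its ligand was higher. Il1rap, the shared accessory chain, stayed between 3.71 and 4.33 CPM.

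In the IL-6 family Il6 and Il11 were higher in young I/R, Il27 and the receptor chain Il27ra were lower, and the other receptors were not called in either I/R comparison. Il6 held 0.232, 2.44, 0.145 and 0.824 CPM, from 6, 97, 6 and 55 UMIs, and its log2 ratios were 3.40 (2.22 to 4.88) and 2.51 (1.29 to 4.01). Il11, which acts on fibroblasts, had 5, 63, 15 and 47 UMIs, with a called young log2 ratio of 3.04 (1.74 to 4.71) and an aged one of 0.96 (0.09 to 1.90) under 2-fold. For both, young I/R was the highest library. Il27, named here after its values were seen, had 7, 1, 7 and 6 UMIs and a young log2 ratio of -3.43 (-8.92 to -0.47), called under both scalings. Il27ra, which pairs with gp130 to bind IL-27, held 1.86, 0.781, 1.62 and 1.86 CPM, and its young log2 ratio of -1.25 (-1.95 to -0.57) was no longer a call with the other scaling. The shared signalling chain Il6st, or gp130, held 79.5, 84.7, 95.6 and 98.6 CPM and differed by less than 2-fold in every comparison. Il6ra, which binds IL-6 itself, held 18.3, 13.1, 9.58 and 17.6 CPM, and its log2 ratios were -0.49 (-0.67 to -0.31) and 0.88 (0.72 to 1.05), neither past 2-fold. Il11ra1, the receptor for IL-11, held 61.4, 51.8, 92.1 and 56.4 CPM and was likewise not called. It overlaps Galt on its own strand and has near-identical copies in the genome, so its count is uncertain.

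Downstream of these receptors, Socs3, the STAT3-induced inhibitor of gp130 signalling, was the only one of 23 genes of the JAK, STAT and SOCS list called higher in I/R. It held 1.86, 12.0, 2.95 and 11.5 CPM, with log2 ratios of 2.69 (2.26 to 3.15) and 1.97 (1.69 to 2.26). In young I/R 4 of the 23 were lower, Stat2, Stat4 and Tyk2 among them, where 25.5% of all genes were. None of the 4 stayed a call with the other scaling, and in aged I/R 0 of the 23 were lower. Of 25 genes on the path from MyD88 to NF-κB, only Nfkbia, the NF-κB inhibitor and target, was higher in young I/R, at 28.2, 56.9, 42.3 and 53.2 CPM, and Nfkb1 was lower. With the other scaling Myd88 was also higher and Nfkb1 was not called. None of the 25 was called in aged I/R. Cytokines and receptors outside the Il names numbered 31, with 8 higher and 5 lower in young I/R and 2 higher and 1 lower in aged I/R. Of all genes 2.92% were higher and 25.5% lower in young I/R, and 5.15% and 2.99% in aged I/R. These shares apply to each list of this paragraph. A list of 23, 25 or 26 genes with 1 higher call lies near them. With the other scaling 12 of the 31 were higher and 1 lower in young I/R. Among the 8 were Csf3r, Ppbp, Csf3, Csf2rb and the IL-6 family genes Osm, Osmr and Clcf1. Osmr, the oncostatin M receptor that pairs with gp130, held 31.2, 68.1, 42.7 and 57.7 CPM. Csf3r, the granulocyte colony-stimulating factor receptor carried by neutrophils, held 5.26, 23.0, 6.96 and 24.1 CPM and is also one of the 14 neutrophil markers. Of 26 genes for chemokine receptor signalling and matrix binding, Sdc4, a heparan sulfate carrier, was higher in young I/R and 6 were lower, where 25.5% of all genes were. With the other scaling 3 were higher and 2 lower in young I/R. In aged I/R only Hspg2 was called, as lower.

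Of 10 measured chemokine receptors, none was higher and 2 were lower in young I/R, where 2.92% and 25.5% of all genes were. In aged I/R 1 was higher and 1 lower, where 5.15% and 2.99% of all genes were. Ccr1, a receptor of neutrophils and monocytes for Ccl3, Ccl6 and Ccl9, held 4.84, 6.98, 2.93 and 10.8 CPM, with log2 ratios of 0.53 (0.22 to 0.85) and a called 1.88 (1.60 to 2.17). Aged I/R was its highest library and aged sham its lowest. Cxcr4, the receptor for Cxcl12, held 2.01, 1.46, 3.34 and 1.53 CPM and was lower in aged I/R, at -1.13 (-1.51 to -0.75). Ackr3, the atypical receptor that takes up Cxcl12, held 28.3, 14.4, 25.8 and 17.3 CPM, with a young log2 ratio of -0.97 (-1.13 to -0.81) just under 2-fold and an aged one of -0.57 (-0.69 to -0.45). Cx3cr1, a receptor of resident macrophages and monocytes, held 5.34, 3.02, 7.69 and 2.86 CPM, lower in I/R at both ages and called in aged mice, at -1.43 (-1.69 to -1.16). Its annotated span overlaps several other genes on both strands. Its ligand Cx3cl1, made by endothelial cells, held 4.26, 2.50, 6.60 and 3.79 CPM, with log2 ratios of -0.77 (-1.18 to -0.37) and -0.80 (-1.05 to -0.55), both under 2-fold.

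Some genes gave a high value in young sham and a low one in young I/R that aged mice did not share. Il15ra, which presents IL-15 to lymphocytes, held 50.4, 12.6, 16.4 and 30.1 CPM, from 1303, 498, 677 and 2009 UMIs. Its log2 ratios were -2.01 (-2.16 to -1.86) and 0.88 (0.75 to 1.01), so that young sham was its highest library and aged I/R the next. Il15 itself held 21.9, 11.9, 17.7 and 15.1 CPM and was not called. Il17rb, the receptor for IL-25, had 35, 6, 12 and 41 UMIs and log2 ratios of -3.16 (-4.70 to -1.90) and 1.08 (0.13 to 2.15). It was the only gene of the 95 called lower in young and higher in aged I/R, its aged call was lost with the other scaling, and it overlaps Actr8 on the other strand. Ccr9, the receptor of gut-homing lymphocytes, had 49, 13, 20 and 58 UMIs, and its ligand Ccl25 held 19.1, 7.28, 10.7 and 12.9 CPM. Both were called lower in young I/R, at -2.53 (-3.54 to -1.63) and -1.39 (-1.60 to -1.18), and neither was called in aged I/R; the call of Ccl25 was lost with the other scaling. Ackr4, the atypical receptor for Ccl19, Ccl21 and Ccl25, held 3.99, 0.781, 1.98 and 1.80 CPM, again with young sham high and young I/R low. All 3 overlap other genes on the opposite strand, and Malat1, a nuclear RNA, took 7.34% of the UMIs in young sham against 2.22% to 4.33% elsewhere. The 12 B lymphocyte markers summed to 190, 58.7, 148 and 132 CPM, and 0 of the 12 had a larger CPM after I/R in young mice. Most of that sum was Ebf1, which stromal and mural cells also express, at 155, 53.9, 113 and 110 CPM. The part of these in the values was not tested.

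Among the other interleukin receptors, 3 of 13 genes of the common chain families (Il2ra, Il15ra and Il2rg) were lower in young I/R. So were 3 of 6 of the IL-17 family (Il17rb, Il17rd and Il17re), while 25.5% of all genes were lower. Of these receptors only Il15ra and Il17rb stayed calls with the other scaling. Il17ra, the shared chain of the IL-17 receptors, held 8.79, 15.6, 9.82 and 15.3 CPM, higher in both I/R libraries by less than 2-fold. Il13ra1, a receptor chain for IL-4 and IL-13, held 16.8, 26.5, 28.7 and 19.9 CPM, and its log2 ratios were 0.66 (0.50 to 0.83) and -0.53 (-0.64 to -0.41). Il3ra, a receptor chain for IL-3, held 6.54, 5.57, 12.2 and 4.06 CPM, and its low value in aged I/R was a call at -1.59 (-1.81 to -1.38). The IL-10 and IL-12 families, with 9 measured genes, gave no call in I/R over sham at either age. Over all genes, 2.92% were higher and 25.5% lower in young I/R, and 5.15% and 2.99% in aged I/R. The IL-10 receptor chains Il10rb, at 62.3, 33.6, 68.4 and 50.6 CPM, and Il10ra, at 7.28, 5.34, 13.7 and 7.91 CPM, were lower in I/R by less than 2-fold at both ages.

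Set side by side, 11 genes were called higher in I/R at both ages: Ccl2, Ccl6, Cxcl1, Cxcl2, Cxcl3, Cxcl5, Il1b, Il1f9, Il1rn, Il18rap and Il6. They are 64.7% of those called in young mice and 78.6% of those called in aged mice. Lower calls overlapped less, with Cxcl9 and Il4i1 in both, 11.1% of the young and 22.2% of the aged calls. The young call of Il4i1 was lost with the other scaling. The overlap of calls over all genes was not counted, so these shares have no background beside them. Each of the 16 genes called higher in young I/R with a finite ratio had a smaller ratio in aged mice. These genes were picked by their young ratio, which by itself favours this order. The aged minus young difference of the log2 ratio, with an approximate 95% interval, was -2.69 (-3.56 to -1.82) for Cxcl5, -3.62 (-5.41 to -1.83) for Il1rn, -1.50 (-1.93 to -1.08) for Ccl2, -1.61 (upper limit -1.22) for Ccl7 and -2.09 (-2.77 to -1.41) for Il18rap. It was -0.62 (-1.50 to 0.27) for Cxcl2, which counting error does not separate from 0. The median difference over all genes was 0.61, and over the 95 genes 0.05. A difference was counted where it lay at least 2-fold from the median of all genes and its interval excluded that median. By this rule 28 of the 95 genes were lower, where 12.8% of all genes were, and 6 were higher, where 14.6% were. The 6 were Il17rb, Ccr9, Il1rapl1, Il15ra, Ackr4 and Ccl25.

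**Figure D3:**
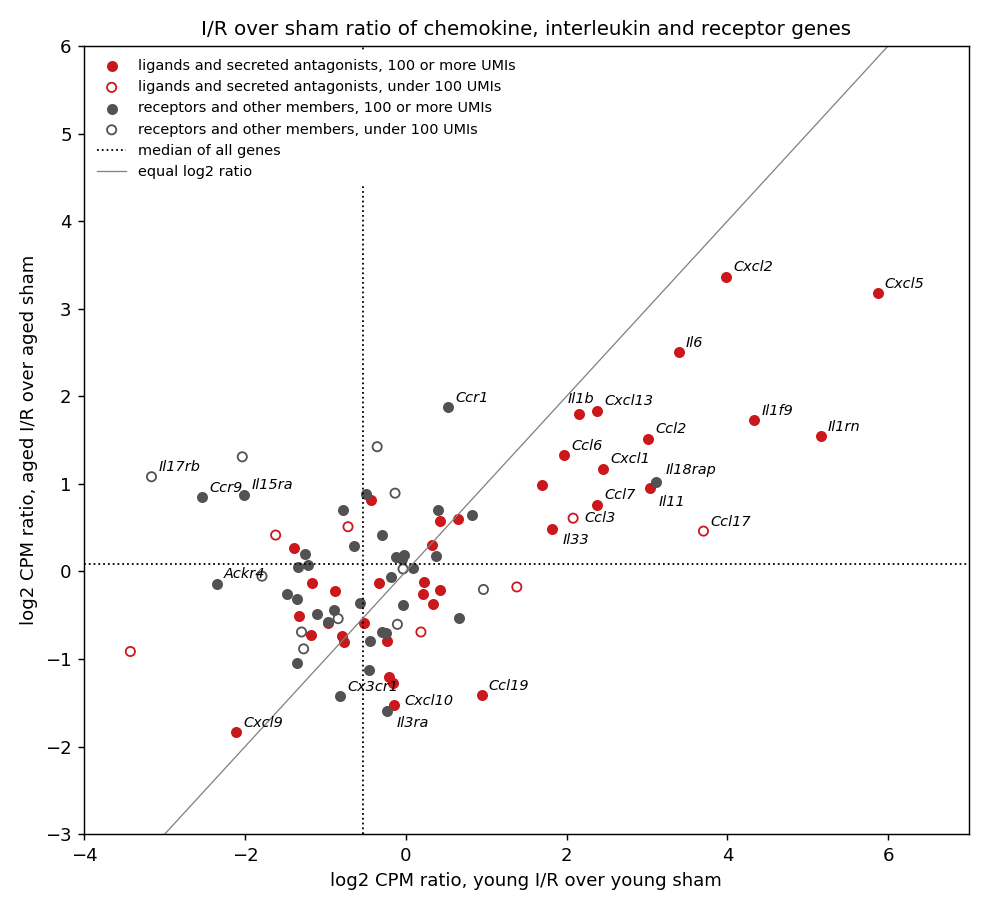
Log2 ratio of I/R to sham in young mice (x axis) and in aged mice (y axis) for 91 of the 95 genes, ligands and secreted antagonists in red and receptors and the rest in grey, with open circles for genes under 100 UMIs; 4 genes with a count of 0 are left out. Dotted lines mark the medians of all genes at -0.53 and 0.09, and the named chemokines and cytokines on the right lie below the line of equal ratios.

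Aged sham was set against young sham to see how the genes differed with age before ischemia. Of the 95 genes 16 were higher in aged sham, where 3.06% of all genes were, and 5 were lower, where 7.09% were. The other scaling gave 19 higher and 3 lower, with 4.22% and 5.20% of all genes. The median log2 ratio was 0.40 over the 95 genes and -0.14 over all genes, and 72 of the 95 lay above the median of all genes. Again ligands led, with 11 of 46 higher and 1 lower, beside 5 of 49 receptors higher and 4 lower.

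Ccl8, a ligand of several CC receptors that tissue macrophages make, had 49 UMIs in young sham and 714 in aged sham. Aged exceeded young by 3.19 (2.77 to 3.63) on the log2 scale between the sham libraries and by 2.62 (2.25 to 3.02) between the I/R libraries. Cxcl13 went from 1 to 80 UMIs between the sham libraries, a log2 ratio of 5.64 (3.12 to 10.96), and from 8 to 461 between the I/R libraries, 5.10 (4.11 to 6.32). For both genes each aged library stood above each young one. Ccl11, the eosinophil attractant, held 0.658, 1.03, 1.98 and 3.01 CPM, with log2 ratios of 1.59 (0.83 to 2.44) in sham and 1.54 (1.05 to 2.06) in I/R. The T cell attractants Ccl5 and Cxcl10 were higher in aged sham, by 2.46 (1.60 to 3.46) and 1.81 (0.95 to 2.79) on the log2 scale. Ccl19 was higher in aged sham by 1.04 (0.53 to 1.58), and Cxcl14 by 1.01 (0.82 to 1.21).

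Il7 and its receptor were both higher with age. Il7, the stromal survival factor of lymphocytes, had 5, 9, 49 and 73 UMIs, a log2 ratio of aged over young of 2.61 (1.29 to 4.30) in sham and 2.27 (1.27 to 3.45) in I/R. Il7r held 1.12, 1.46, 4.50 and 5.08 CPM, 4.01-fold and 3.47-fold higher in the aged libraries. Il18r1 had 18, 27, 155 and 192 UMIs, with 2.43 (1.72 to 3.22) and 2.08 (1.49 to 2.72), and Il2rb, a receptor chain of T and natural killer cells, 11, 7, 40 and 35 UMIs. In all 4 genes both aged libraries stood above both young ones. Il23r, named here after its values were seen, had 0 UMIs in both young libraries and 12 and 22 in the aged ones. With 3 UMIs put for the 0, it was 2.50-fold higher in aged than in young sham, again not the limit of an interval. Markers of T and natural killer cells moved with these genes: 16 of them summed to 6.08, 3.10, 13.2 and 12.3 CPM, and 14 of the 16 had a larger CPM in aged than in young sham and 15 in aged than in young I/R. Of the 12 B lymphocyte markers 6 had a larger CPM in aged than in young sham. Cd3d had 1, 6, 42 and 53 UMIs, and the part of such cells in the values was not tested.

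Several inflammatory genes that were higher in I/R already differed between the sham libraries. Cxcl5 was 3.08-fold higher in aged sham, with 13 and 64 UMIs, Il33 3.18-fold with 45 and 229, Il18rap 3.10-fold with 23 and 114, and Il1rn 4.16-fold with 3 and 20. Ccl2, Ccl7, Cxcl1 and Il1b were 1.42-fold to 1.79-fold higher in aged sham and were not called. Il6 had 6 UMIs in each sham library. Lower in aged sham were Il15ra at -1.62 (-1.76 to -1.49), Ccr9 at -1.97 (-2.80 to -1.19), Il17rb at -2.22 (-3.30 to -1.24), Ackr4 at -1.01 (-1.44 to -0.58) and Il23a, with 15 and 10 UMIs. Ackr4 and Il23a lost their call with the other scaling. The first 4 of these are the genes that stood high in young sham in the I/R comparison above, which uses the same young sham library.

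**Figure D4:**
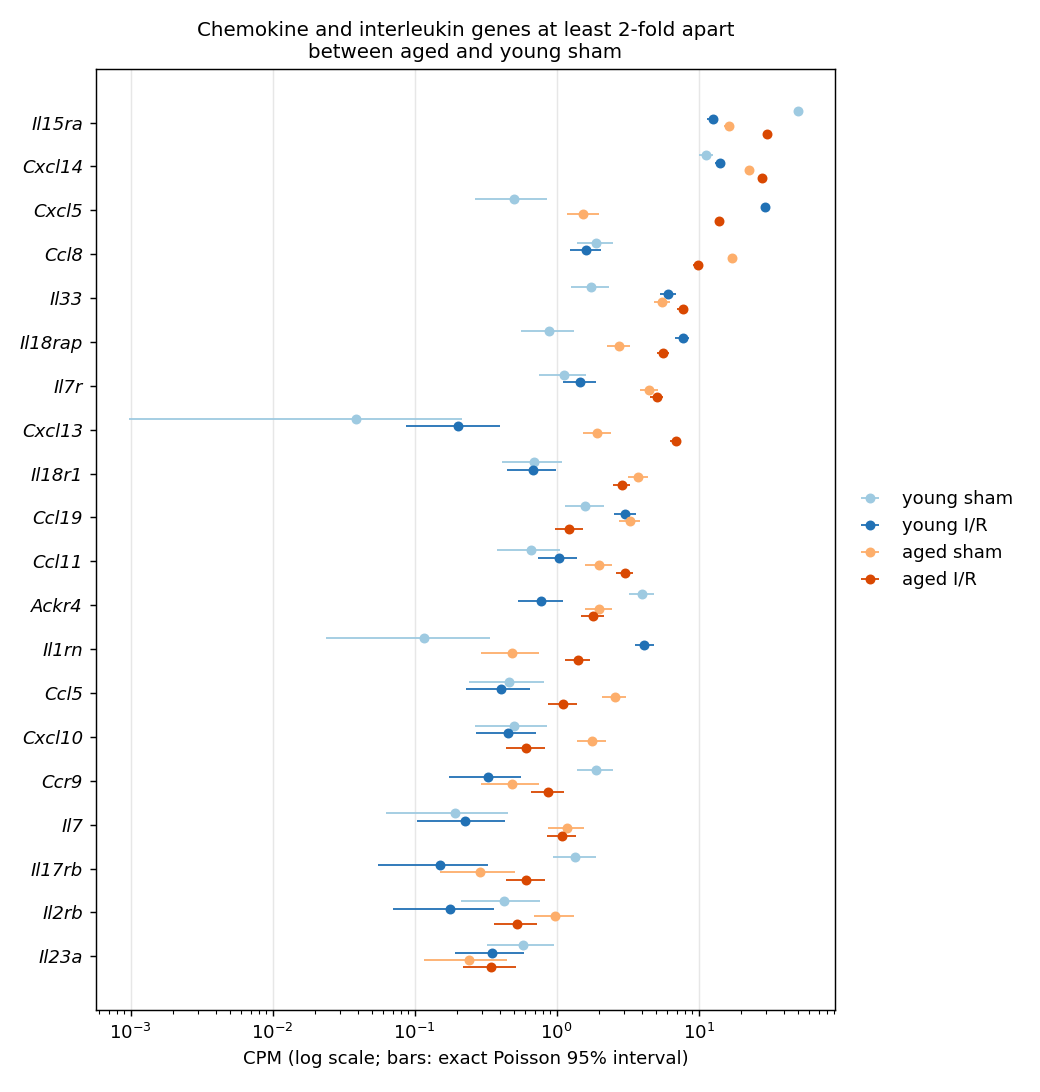
Levels (CPM, log scale, x axis) of the 20 genes with 50 or more UMIs called higher or lower in aged than in young sham (y axis) in each of the 4 libraries, with exact Poisson 95% intervals as bars. For Ccl8, Cxcl13, Il7, Il7r and Il18r1 both aged points (orange) lie right of both young points (blue), while Il15ra, Ackr4, Ccr9 and Il17rb are highest in young sham.

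Between the I/R libraries, 25 genes were higher in aged mice, where 19.7% of all genes were, and 6 were lower, where 1.55% were. This split depended on the scaling, which moves every ratio by -0.38 here: with the median of gene-wise ratios 12 genes were higher and 13 lower, with 9.71% and 3.95% of all genes. The 6 lower genes were all ligands or antagonists, Cxcl5, Il1rn, Il6, Il11, Ccl3 and Ccl19, and all 6 stayed calls with the other scaling. Their log2 ratios ran from -1.57 (-2.07 to -1.08) for Il6 to -1.04 (-1.76 to -0.32) for Ccl3. Ccl2, Ccl7, Cxcl1, Cxcl3, Il1f9, Ccl17 and Il17d were further lower calls with the other scaling alone. The genes higher in aged I/R under both scalings were Cxcl13, Ccl8, Ccl11, Ccl5, Il7, Il7r, Il18r1, Il23r, Il12a, Il17re, Il17rb and Ccr9. Cxcl12 was 2.50-fold higher in aged I/R by total UMIs and lost its call with the other scaling.

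It was also examined whether the genes were held by barcodes of a given cell kind. Member UMIs were spread thinly: the 1166 UMIs of Cxcl5 in young I/R came from 1158 barcodes, with at most 2 in any of them, and the 14537 of Cxcl12 in aged I/R from 13265 barcodes, with at most 6. For 7 cell classes, barcodes were summed that held at least 4 UMIs of a marker list and more than of all the other lists together. They were set against the rest of the barcodes. The rest also held marker UMIs, with a median of 2 UMIs of endothelial and 1 of fibroblast markers in aged I/R. Only genes with at least 10 UMIs in the barcodes of a class were read, which were 71 of the 95 in endothelial, 53 in fibroblast, 5 in mural and 3 in macrophage barcodes, and none in neutrophil, B lymphocyte or T and natural killer cell barcodes. Of these, 0 reached 3-fold over the rest with the lower limit of the interval. Ackr2, an atypical receptor for CC chemokines, had the highest ratio among the genes read, 2.65-fold (1.49 to 4.38) with the libraries pooled, from 16 UMIs in barcodes with fibroblast markers. Those 16 came as 3, 0, 8 and 5 from the 4 libraries. Cxcl12 held 180, 89.8, 143 and 223 CPM in barcodes with endothelial markers and 116, 87.3, 122 and 217 CPM in the rest, and the intervals of these levels overlapped in both I/R libraries and not in the sham libraries. Cardiomyocyte markers took a like share of the UMIs in all of these barcodes, for example 9.88% in the endothelial ones of young I/R and 9.94% in the rest. Many barcodes held just the 4 marker UMIs required, namely 2166 of 2975 endothelial ones in young I/R and 5225 of 10913 in aged I/R. The classes were thus not shown to be separate cells. For this reason the 3-fold count cannot decide whether a cell kind held a gene. Barcodes of the neutrophil class numbered 1, 2, 0 and 4 and held only 205, 895, 0 and 3482 UMIs. No member reached 10 UMIs in them, so for neutrophils the 3-fold count above did not read any gene. Under that minimum, with the libraries pooled, Cxcl2 had 2 UMIs there, 79.9-fold over the rest (9.66 to 289.6). Il1b had 3 UMIs, 145.9-fold (30.02 to 428.2), and Ccl6 3 UMIs, 25.3-fold (5.21 to 73.9). Cxcl3, Il1f9 and Il20rb had 1 UMI each, with lower limits of 4.12-fold, 7.01-fold and 1.94-fold. Nearly all UMIs of the neutrophil barcodes came from the I/R libraries, while the pooled rest includes both sham libraries. The difference between I/R and sham is therefore mixed into these folds. Cxcl5 and Ccl2, like most members, had 0 UMIs there, with upper limits of 64.7-fold and 73.8-fold.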

How the data were processed

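RNA of mouse left ventricle was measured in 4 10x Chromium 3′ libraries. The authors aligned the reads with Cell Ranger 6.0.2 (per the labels, to mm10) and deposited whole UMI counts per gene and barcode, without normalization; strand settings are not given in the sources used here, so overlapping genes may share reads, as 31 of the 95 genes overlap another. Groups came from the labels. Each library's UMIs were added up across its barcodes and expressed as CPM, with exact Poisson 95% intervals for levels and exact conditional (Clopper-Pearson) intervals for ratios. Precision follows from depth, 25836175 to 66767829 UMIs per library.

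Calls required 2-fold and an interval clear of equality, among genes with 20 or more UMIs. A count of 0 was replaced by 3 for the fold of such a gene, which is not the limit of an interval. Named genes are those with 200 or more UMIs, those called in any comparison with 50 or more UMIs, and 19 written by hand; 78 qualify. Members, lists and rules were chosen with earlier results of these data known. Alternatives were scaling by the median of gene-wise ratios over 11881 genes, totals without Gm42418, Malat1 and mitochondrial genes, barcodes with 200 or more genes, other UMI minimums and 1.5-fold. Gene positions came from GENCODE vM21 and promoters from RefSeq (GRCm38.p6), with 72 of 95 members matched. Python 3.11.15, numpy 2.4.6, scipy 1.17.1, pandas 2.3.3 and matplotlib 3.10.9 were used, and the calculations were tested on simulated data. Cells were not clustered, doublets were not removed, and protein sequences were not analysed here. The values of some genes are not reported here.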

Additional observations from a re-analysis of the deposited data

Results flagged for a closer look

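In 5 of the 95 genes the log2 ratio of I/R over sham had opposite signs in young and aged mice, each beyond counting error and under both scalings. How many of all genes do so was not counted, so this number has no background beside it. The medians of all genes also had opposite signs by total UMIs, -0.53 in young and 0.09 in aged mice. The difference was not tested, since each condition has 1 library. Il15ra gave -2.01 in young and 0.88 in aged mice, and Il17rb -3.16 and 1.08. Ccl25 gave -1.39 and 0.27. In these 3 genes young sham held the highest level of the 4 libraries. Ccl19 gave 0.94 and -1.41, and Il13ra1 0.66 and -0.53, and in both aged sham held the highest level by total UMIs. Young I/R lay close below it in both, and that order turned with the other scaling.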

How the results depend on the processing

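Scaling by the median of gene-wise ratios changed 4 counts: 8 genes were lower in young I/R in place of 18, 3 lower in aged sham in place of 5, 12 higher in aged I/R than in young I/R in place of 25, and 13 lower in place of 6. Totals without Gm42418, Malat1 and mitochondrial genes gave 3 lower in aged sham, and so did a minimum of 100 UMIs. With 1.5-fold as the limit, 25 genes were higher and 19 lower in aged I/R than in aged sham, 30 higher and 9 lower in aged than in young sham, and 38 higher and 12 lower in aged than in young I/R. The share of all genes was not counted at 1.5-fold, with the other totals or with the minimum of 100 UMIs. These counts therefore have no background beside them. Over barcodes with 200 or more genes, the median of the 95 genes relative to all genes in aged over young I/R was 0.13 in place of -0.005. The cause was not tested. The other counts lay within 1.5 times their value, and the other medians kept their sign and stayed close to their value. Of 310 ratios of named genes, 88 moved by more than counting error with the scaling and 26 with the other totals. Over barcodes with 200 or more genes 18 such ratios moved. None that was called changed sign, which the scaling, with shifts under 2-fold, could not have brought about. No paired analysis was possible because each condition has 1 library, and for the same reason no replicate could be left out. Depth limits the genes under 50 UMIs, whose intervals span several-fold.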
